A study of Sus scrofa with 6 samples.

Results

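Genes of secreted cytokines and chemokines, their receptors and the SOCS inhibitors were examined in porcine granulosa cells (GCs), the somatic cells that surround the oocyte and line the follicle. A gene was taken as a member when its Ensembl pig name began with *CXCL*, *CXCR*, *TNFSF* or *SOCS*, or with *CCL*, *CCR*, *IL* or *CSF* followed by a digit, or was *TNF*, *LIF*, *LIFR*, *OSMR* or *MIF*. By this rule 71 of the 17950 genes in the deposited table were members, of which 29 were ligands, 39 were receptors and 3 were *SOCS* genes. A symbol was found for 10489 genes, and a cytokine gene without a symbol was not analysed here. *TNF* and *LIF*, which the rule names, were not found by symbol, nor were *IL1B*, *CXCL12*, *CXCR4* and *CSF1*. Nothing is known here of their levels. Primary GCs of pre-pubertal Landrace gilts, grown in serum-containing medium, were infected for 72 h with a lentivirus that carried porcine *RBP4* and a green fluorescent marker (pLVX-*RBP4* group) or with the same vector bearing the marker alone (CTRL group). Each group had 3 libraries. Both groups had thus been exposed to lentiviral particles, and uninfected cells were not analysed here. The deposited table gives 1 FPKM value (fragments scaled by transcript length and by the mapped total) for each gene and group, which the authors made from the 3 libraries together, and there was no replicate check.

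Cytokines are small secreted proteins that act on nearby cells through surface receptors. Receptors of the class I family, such as the IL6ST group, signal through JAK kinases and STAT factors, and SOCS proteins are induced by this signal and shut it off. The IL1 family works through MYD88 and NF-kB, and chemokines act on G protein-coupled receptors and guide the migration of leukocytes. In the ovary, chemokines and IL1 family cytokines are known for their part in the inflammation-like events of ovulation.

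No test between groups was possible with 1 value per gene and group. Differences were taken on the log2(FPKM + 1) scale as pLVX-*RBP4* minus CTRL, which makes the difference of a low gene smaller than its plain ratio would, and a gene was kept when the average of its 2 group values was at least 1 FPKM. The introduced gene *RBP4* had 1.105 FPKM in CTRL cells and 92.3 FPKM in pLVX-*RBP4* cells, a value in which introduced and endogenous transcripts are not told apart. Of the 12 granulosa markers listed, 5 were found by symbol and all 5 were kept, among them *CYP11A1* with 673 and 669 FPKM in the CTRL and pLVX-*RBP4* groups and *FSHR* with 9.99 and 8.47 FPKM. The most abundant of the 5, *GJA1*, had 675 and 814 FPKM, and all 5 summed to 1398 and 1530 FPKM. As deposited, only *GJA1* was higher and the other 4 were lower, with a median difference of -0.054 for the 5. After rescaling the groups to a common sum 3 were higher, with a median of 0.023. Of all kept genes, 50.2% were higher as deposited and 64.9% after this rescaling. Markers of other cells were also present. Of 13 leukocyte markers, 7 were found and none was listed at 0, with a summed level of 57.1 FPKM in CTRL cells and 62.8 FPKM in pLVX-*RBP4* cells. The monocyte marker *CD14* had 42.9 and 48.9 FPKM, while the pan-leukocyte gene *PTPRC* had 0.229 and 0.166 FPKM. The 7 theca and stroma markers found, of 10 listed, summed to 894 and 990 FPKM. Most of this sum came from *ACTA2* with 644 and 688 FPKM and *DCN* with 169 and 210 FPKM. In contrast, *LHCGR* had 0.209 and 0.0937 FPKM, and *INSL3* was listed at 0 in CTRL cells and had 0.292 FPKM in pLVX-*RBP4* cells. The endothelial markers found (3 of 6) summed to 20.4 and 19.5 FPKM and the epithelial ones (3 of 5) to 13.3 and 13.5 FPKM. Most of the epithelial sum was *KRT8* with 12.97 and 13.2 FPKM, while *EPCAM* had 0.325 and 0.199 FPKM. Of 6 oocyte markers only *GDF9* was found, with 3.36 and 3.51 FPKM. In such bulk values fewer cells of a type and less RNA per cell cannot be told apart, and the part of these cells in the results below was not tested.

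Members were less abundant than most genes, with a median mean level of 0.967 FPKM compared with 5.39 FPKM over all genes. A mean FPKM of at least 1 was reached by 35 of the 71 members (49.3%), compared with 69.0% of all genes and 76.5% of genes with a symbol. By role, 15 of 29 ligands, 17 of 39 receptors and all 3 *SOCS* genes were kept. The median mean level was 1.26 FPKM over all ligands and 0.461 FPKM over all receptors. All 71 members were above 0 in at least 1 group, 63 of them in CTRL cells and 68 in pLVX-*RBP4* cells. Over all 17950 genes the counts were likewise higher in pLVX-*RBP4* cells, with 16259 and 16471 above 0. Of the 10489 genes with a symbol, 10107 and 10180 were above 0. The study lists more mapped reads for each pLVX-*RBP4* library than for any CTRL library, and the part of depth in these counts was not tested.

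**Figure D1:**
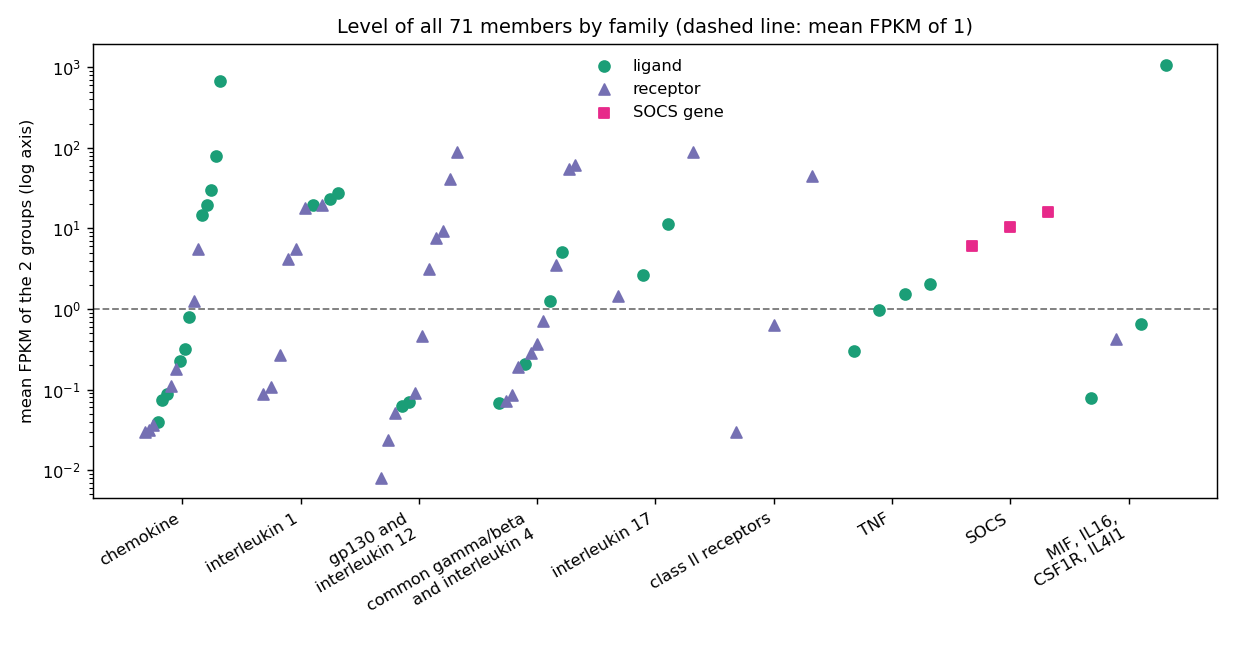
Mean FPKM of the 2 groups (log axis) for each of the 71 members, arranged by family, with circles for ligands, triangles for receptors and squares for *SOCS* genes. Most families run from well below the dashed line at 1 FPKM to well above it, and the 2 highest circles are *MIF* and *CCL2*.

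The differences between the groups were small. Of the 35 kept members, 18 were higher and 17 lower in pLVX-*RBP4* cells, with a median difference of 0.0042, and 50.2% of all 12382 kept genes were higher, with a median of 0.0014. This split depended on the scaling, since 24 members were higher and 11 lower after scaling to a common median, and 25 and 10 after rescaling to a common sum, where 64.9% of all genes were higher. A difference of 0.5 or more in either direction was reached by 1 member, *IL1R2*, against 4.05% of all kept genes. Every member has a symbol, and of the 8024 kept genes with a symbol 125 reached this limit, a smaller share than over all kept genes. The median size of the difference was 0.093 for the members, 0.13 for all kept genes and 0.117 for those with a symbol. Of the 35 members, 25 lay within the middle 50% of all kept genes.

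**Figure D2:**
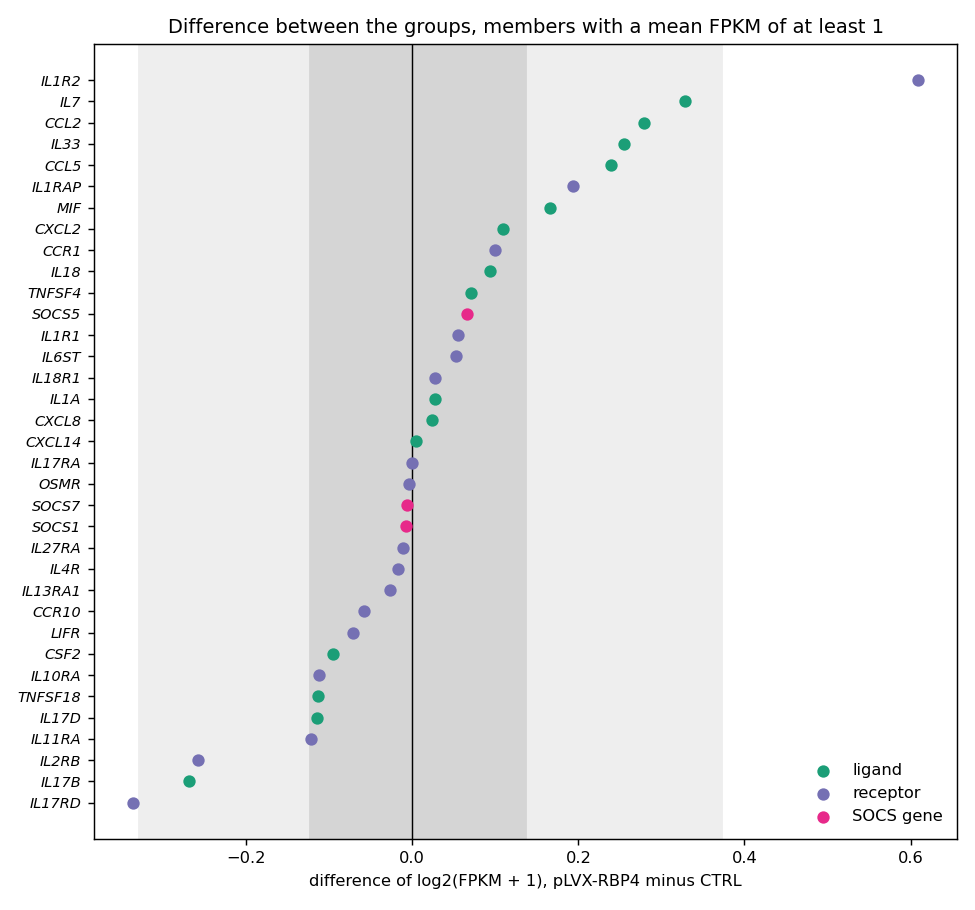
Difference of log2(FPKM + 1), pLVX-*RBP4* minus CTRL, for the 35 members with a mean FPKM of at least 1, coloured by role. The dark band holds the middle 50% and the light band the middle 90% of all kept genes, and 2 members, *IL1R2* and *IL17RD*, lie outside the light band.

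Among the ligands, *MIF* and *CCL2* stood far above the rest. *MIF*, which encodes macrophage migration inhibitory factor, had 1016 FPKM in CTRL cells and 1139 FPKM in pLVX-*RBP4* cells, the 106th highest mean level of the 17950 genes. *CCL2*, a chemokine that attracts monocytes, had 613 and 744 FPKM, ranked 161st. Together both genes made up 87.4% of the summed ligand FPKM in CTRL cells and 88.5% in pLVX-*RBP4* cells. Both were higher in pLVX-*RBP4* cells, by 0.17 for *MIF* and 0.28 for *CCL2*. The difference of *CCL2* was larger in size than that of 82.7% of all kept genes. *MIF* has processed copies in mammalian genomes, and how the authors' counting divided reads between near-identical copies is not given in the sources used here.

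Other chemokine ligands formed a second tier. *CXCL8*, which attracts neutrophils, had 77.6 FPKM in CTRL cells and 78.9 FPKM in pLVX-*RBP4* cells. Its paralog *CXCL2*, which acts on the same cells and belongs to a group of closely similar chemokines, had 28.6 and 31.0 FPKM. Both are near equal between the groups, with differences of 0.024 and 0.11. *CCL5*, which attracts T cells and monocytes, had 17.7 FPKM in CTRL cells and 21.1 FPKM in pLVX-*RBP4* cells, a difference of 0.24. *CXCL14*, a chemokine made constitutively in many tissues, had 14.6 and 14.6 FPKM. Thus all 5 kept chemokine ligands were higher in pLVX-*RBP4* cells, also after each scaling, although *CXCL14* differed by only 0.0042. Of all kept genes, 50.2% were higher as deposited. Each scaling raised this share, to 51.2% with a common upper quartile, 54.2% with a common median and 64.9% with equal sums. The other 6 chemokine ligands were below a mean of 1 FPKM. *CCL3L1*, a gene with near-identical copies in other mammals, came closest with 0.995 and 0.589 FPKM, followed by *CCL25* with 0.377 and 0.258 FPKM. *CCL19* and *CCL27* were listed at 0 in CTRL cells, and *CCL1* and *CCL17* were listed at 0 in pLVX-*RBP4* cells. The highest value of these 4 was 0.454 FPKM, for *CCL27*.

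Ligands of the IL1 family were expressed at similar levels to each other. *IL1A*, a proinflammatory cytokine that is active without cleavage, had 27.5 FPKM in CTRL cells and 28.02 FPKM in pLVX-*RBP4* cells. *IL18*, which is cleaved by caspase-1 and drives interferon gamma production, had 22.1 and 23.7 FPKM. *IL33*, a nuclear protein released from damaged cells, had 17.9 and 21.5 FPKM. All were higher in pLVX-*RBP4* cells, by 0.027 for *IL1A*, 0.093 for *IL18* and 0.25 for *IL33*, where 50.2% of all kept genes were higher.

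The remaining kept ligands had mean levels from 1.26 to 11.2 FPKM and went both ways. *IL17D*, of the IL17 family, had 11.7 FPKM in CTRL cells and 10.7 FPKM in pLVX-*RBP4* cells, and its relative *IL17B* had 3.003 and 2.32 FPKM, lower by 0.27. *CSF2*, which encodes the granulocyte-macrophage colony-stimulating factor, had 5.30 and 4.89 FPKM. Of the TNF superfamily, *TNFSF4* (OX40 ligand) had 1.96 and 2.11 FPKM, and *TNFSF18* (GITR ligand) had 1.65 and 1.45 FPKM, both of them ligands that costimulate T cells. *IL7*, a survival factor of lymphocytes, had 1.01 FPKM in CTRL cells and 1.52 FPKM in pLVX-*RBP4* cells. Its difference of 0.33 was the largest of the kept ligands on the log2(FPKM + 1) scale, and its ratio without the added 1 was 1.51.

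Altogether 11 of the 15 kept ligands (73.3%) were higher in pLVX-*RBP4* cells, as deposited and after each scaling, compared with 50.2% of all kept genes as deposited and 64.9% with equal sums. Their median difference was 0.070 as deposited, 0.12 with equal sums and 0.027 over all 29 ligands without the filter. The 4 lower ligands were *IL17D*, *CSF2*, *IL17B* and *TNFSF18*. None of the 15 reached a difference of 0.5.

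**Figure D3:**
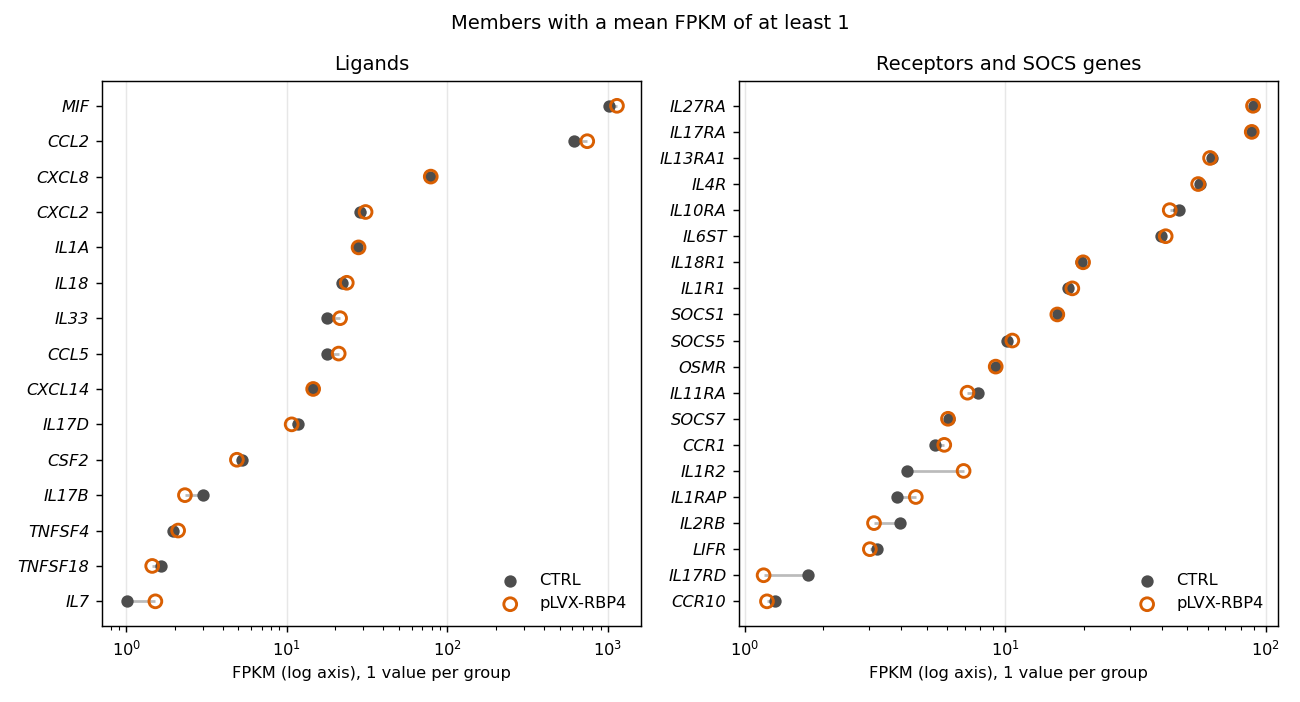
FPKM (log axis) of the 15 kept ligands (left) and of the 17 kept receptors and 3 *SOCS* genes (right), with filled points for CTRL, open points for pLVX-*RBP4* and 1 value per group. The points of most genes overlap, and the widest gap on the right belongs to *IL1R2*, with 4.19 and 6.92 FPKM.

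Of the 14 ligands below the limit, 9 were above 0 in both groups. *IL6*, the ligand that gives the IL6 family its name, had 0.103 FPKM in CTRL cells and 0.0361 FPKM in pLVX-*RBP4* cells. *IL15*, which acts on natural killer and T cells, had 0.0904 and 0.0470 FPKM. *CSF3*, the granulocyte colony-stimulating factor, was listed at 0 in CTRL cells and had 0.124 FPKM in pLVX-*RBP4* cells. The most abundant was *TNFSF9*, a ligand that costimulates T cells, with 0.871 and 1.06 FPKM. *IL4I1*, which the naming rule takes in, encodes an amino acid oxidase and no cytokine, and it had 0.782 and 0.532 FPKM. The other ligands below the limit were *IL5*, *IL16* and *TNFSF13B*, with a highest value of 0.329 FPKM, for *IL5*. At such low levels no direction was read from the values.

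Among the receptors, 6 stood above 40 FPKM in mean level, and they belong to several families. *IL27RA*, the receptor subunit specific to IL27, had 89.96 FPKM in CTRL cells and 89.3 FPKM in pLVX-*RBP4* cells. *IL17RA*, the subunit shared by the receptors of several IL17 cytokines, had 88.3 and 88.3 FPKM. *IL13RA1* and *IL4R*, which pair to form a receptor for IL4 and IL13, had similar levels. These were 62.2 and 61.1 FPKM for *IL13RA1* and 55.7 and 55.0 FPKM for *IL4R*. *IL10RA*, the ligand-binding chain of the IL10 receptor and known mainly from leukocytes, had 46.3 and 42.8 FPKM. *IL6ST* (gp130), the signalling chain shared by the IL6 family, had 39.8 and 41.3 FPKM. The differences of these 6 receptors ranged from -0.11 for *IL10RA* to 0.052 for *IL6ST*.

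Unlike *IL13RA1* and *IL4R*, several other chains that act together differed widely in level. *IL6ST* was 80.1 times as abundant as *IL6R*, the IL6-binding chain, in CTRL cells and 97.15 times in pLVX-*RBP4* cells. *IL6R* itself had 0.497 and 0.425 FPKM. *OSMR*, *IL11RA* and *LIFR*, whose products pair with the IL6ST chain, were closer to it. *OSMR*, the oncostatin M chain, had 9.23 FPKM in CTRL cells and 9.19 FPKM in pLVX-*RBP4* cells. *IL11RA* had 7.89 and 7.17 FPKM, and *LIFR*, the chain for leukemia inhibitory factor, had 3.23 and 3.03 FPKM. *IL31RA*, which pairs with OSMR to form the IL31 receptor, was listed at 0 in CTRL cells and had 0.0162 FPKM in pLVX-*RBP4* cells. *IL2RG*, the common gamma chain that IL4R can also use, had 0.811 and 0.595 FPKM, and *IL4R* was 68.7 and 92.4 times as abundant. *IL13RA2*, a decoy receptor for IL13, had 0.0793 and 0.0638 FPKM. *IL2RB*, which the receptors for IL2 and IL15 share, had 3.95 and 3.14 FPKM, a difference of -0.26.

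*IL1R2* was the kept member with the largest difference. It encodes a decoy receptor that binds IL1 without signalling. Its level was 4.19 FPKM in CTRL cells and 6.92 FPKM in pLVX-*RBP4* cells, a difference of 0.61 and a ratio of 1.65. By size this difference ranked 301st of 12382 kept genes, and in the upward direction, where 2.21% of all kept genes reached 0.5, it ranked 158th. Of the 8024 kept genes with a symbol, 83 reached 0.5 upward. Among the 2276 genes with a mean FPKM from 5 to below 10, the range that holds *IL1R2*, 4.04% reached 0.5 in either direction. The signalling receptor *IL1R1* had 17.4 and 18.1 FPKM, so that the ratio of *IL1R2* to *IL1R1* was 0.242 in CTRL cells and 0.383 in pLVX-*RBP4* cells. *IL1RAP*, the accessory chain that IL1R1 and the IL33 receptor need for signalling, had 3.84 and 4.54 FPKM, a difference of 0.19. *IL18R1*, the IL18-binding chain, had 19.5 and 19.9 FPKM, whereas *IL18RAP*, the chain that completes the IL18 receptor, had 0.0868 and 0.0873 FPKM and was below *IL18R1* by a factor of 225 and 228. All 7 kept members of the IL1 family, ligands and receptors, were higher in pLVX-*RBP4* cells as deposited and after each scaling, with a median difference of 0.093, compared with 50.2% of all kept genes as deposited, 54.2% after scaling to a common median and 64.9% with equal sums. Of these 7 members, 4 differed by less than 0.1. *IL1RAPL1* and *IL1RAPL2*, which are related in sequence but known from synapses, were listed at 0 in CTRL cells, with 0.215 and 0.533 FPKM in pLVX-*RBP4* cells.

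**Figure D4:**
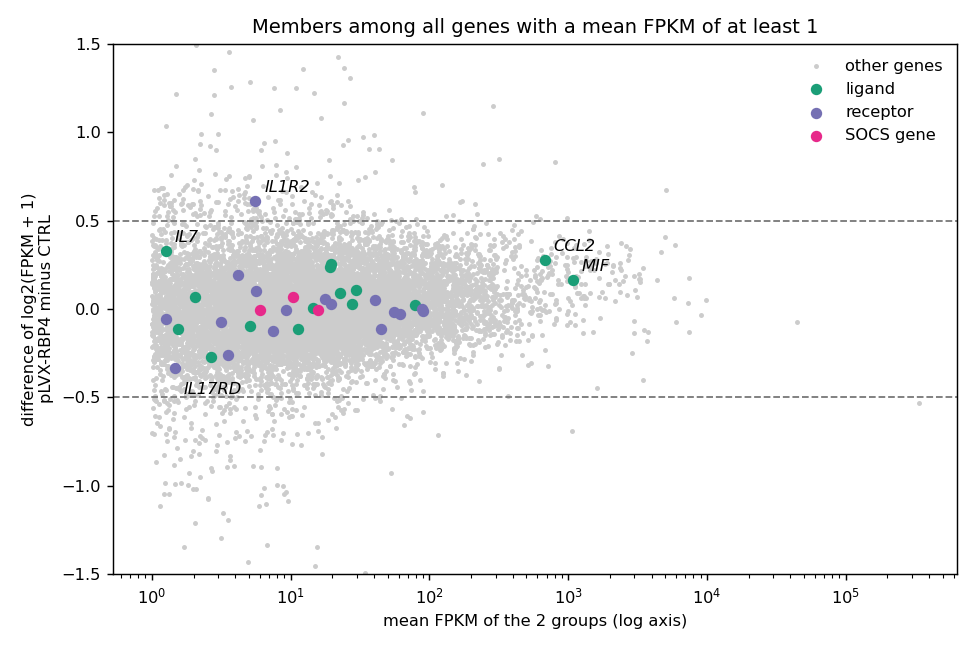
Difference of log2(FPKM + 1), pLVX-*RBP4* minus CTRL, against the mean FPKM of the 2 groups (log axis) for all 12382 kept genes, with members coloured by role and dashed lines at 0.5 and -0.5. *IL1R2* is the only member beyond a dashed line, and 71 genes with a difference larger than 1.5 in size are not drawn.

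The members that encode receptors of chemokines or of the IL17 family were weakly expressed apart from *IL17RA*. *CCR1*, a receptor for CCL5, had 5.38 FPKM in CTRL cells and 5.84 FPKM in pLVX-*RBP4* cells. *CCR10*, a receptor for CCL27, had 1.31 and 1.22 FPKM. *CXCR6*, *CCR6*, *CCR7* and *CCR9* were below the limit, with a highest value of 0.141 FPKM, for *CXCR6*. *IL17RD*, a receptor of the IL17 family that also restrains signalling of fibroblast growth factors, had 1.76 and 1.18 FPKM, a difference of -0.34 and the largest downward difference among the members. It was larger in size than that of 88.7% of all kept genes. No member reached -0.5, against 1.84% of all kept genes and 42 of the 8024 kept genes with a symbol. All 4 kept members of the IL17 family were lower in pLVX-*RBP4* cells as deposited, as were 6161 of the 12382 kept genes. The median difference of the 4 was -0.19, but *IL17RA* differed by only -0.00052 and was higher after each scaling.

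In total 6 of the 17 kept receptors (35.3%) were higher and 11 lower in pLVX-*RBP4* cells, with a median difference of -0.011, beside 50.2% of all kept genes higher. A scaling multiplies all values of a group by the same factor. The number of higher receptors rose with each scaling, as did that of all kept genes, but the share of receptors rose more. The number of higher receptors was 8 (47.1%) with a common upper quartile, 10 (58.8%) with a common median and 11 (64.7%) with equal sums. In these settings 51.2%, 54.2% and 64.9% of all kept genes were higher. Of the 22 receptors below the limit, 16 were above 0 in both groups, and again no direction was read. The highest of the 22 besides *IL2RG* was *IL20RA*, a subunit for IL20 family cytokines, with 0.735 and 0.526 FPKM. *CSF1R*, the macrophage growth factor receptor and a marker of that lineage, had 0.414 and 0.428 FPKM. The last 8 receptors below the limit were *IL21R*, *CSF2RB*, *IL9R*, *IL23R*, *IL7R*, *CSF3R*, *IL22RA2* and *IL12RB2*, chains known mainly from lymphoid and myeloid cells except for the soluble IL22 decoy *IL22RA2*, and their highest value was 0.382 FPKM, for *IL21R* in CTRL cells.

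*SOCS1* and *SOCS7* were among the members with the smallest differences. No *SOCS* gene besides these and *SOCS5* was found by symbol, so *SOCS2* and *SOCS3* were not analysed here, nor was their relative *CISH*. *SOCS1*, an inhibitor of JAK kinases, had 15.9 FPKM in CTRL cells and 15.8 FPKM in pLVX-*RBP4* cells. *SOCS5* had 10.1 and 10.6 FPKM, and *SOCS7* had 6.07 and 6.03 FPKM. Their differences lay between -0.0074 and 0.066. The sign of *SOCS1* and *SOCS7* turned after scaling to a common median or a common sum.

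For 14 ligands at least 1 known receptor chain was also a member, which gave 22 pairs of a ligand and a chain. Both were kept in 6 of the 22 pairs. Of these 6 pairs, 5 belong to the IL1 family, namely IL1A with *IL1R1*, *IL1RAP* and *IL1R2*, IL18 with *IL18R1*, and IL33 with *IL1RAP*. *IL1RAP* encodes an accessory chain, and *IL1RL1*, the gene of the IL33-binding chain, was not found by symbol. The sixth pair was *CCL5* and *CCR1*. In other pairs only the ligand was kept. *CSF2* with 5.30 FPKM in CTRL cells and 4.89 FPKM in pLVX-*RBP4* cells faced its signalling chain *CSF2RB* with 0.217 and 0.357 FPKM. *IL7* with 1.01 and 1.52 FPKM faced *IL7R* with 0.0790 and 0.0937 FPKM. For *IL6* and *IL15* the reverse was found, with a ligand near 0 and a kept chain, *IL6ST* or *IL2RB*. The receptor of *CCL2* was not analysed here.

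Cytokine genes often lie in clusters, and some neighbours differed widely in level while others were alike. In the RefSeq gene order of Sscrofa11.1, a later assembly than the one used for the values, 70 of the 71 members were placed, and 14 successive pairs of members had at most 3 protein-coding genes between them. Both genes were kept in 3 of these pairs, and 1 of both in 7. On chromosome 3, *IL18RAP*, *IL18R1*, *IL1R1* and *IL1R2* follow each other with at most 2 genes between neighbours, and the difference of 0.61 for *IL1R2* stood beside 0.056 for its direct neighbour *IL1R1*. *IL18R1* and *IL1R1* were alike in level, with 19.5 and 17.4 FPKM in CTRL cells, as were *TNFSF18* and *TNFSF4* on chromosome 9, with 1.65 and 1.96 FPKM. Also on chromosome 3, *IL4R* with 55.7 FPKM in CTRL cells adjoined *IL21R* with 0.382 FPKM. *IL6ST* and *IL31RA* are direct neighbours on chromosome 16, with 39.8 FPKM and a listed 0 in CTRL cells. *CCL1* and *CCL2* on chromosome 12 have 2 genes between them, and *CCL1* had 0.147 FPKM in CTRL cells against 613 FPKM for *CCL2*.

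Genes downstream of these receptors were compared by lists of symbols. Of the 21 genes of the JAK-STAT list, 17 were found and 16 kept, of which 4 were higher and 12 lower in pLVX-*RBP4* cells, with a median difference of -0.11. Of all kept genes, 50.2% were higher as deposited and 64.9% with equal sums. With equal sums 7 genes of the JAK-STAT list were higher, or 43.8%, and its median was -0.028. Among the most abundant were the kinase *JAK1* with 108.0 FPKM in CTRL cells and 92.6 FPKM in pLVX-*RBP4* cells and *STAT3*, the main STAT of the IL6 family, with 55.3 and 52.3 FPKM. None reached 0.5, and the largest difference of the list in size was -0.39, for the phosphatase *PTPN1*. Of the 31 genes of the NF-kB, IL1 and TNF signalling list, 28 were found and kept, 10 higher and 18 lower, with a median of -0.044. With equal sums 19 (67.9%) were higher, with a median of 0.034, beside 64.9% and a median of 0.072 for all kept genes. The most abundant was *NFKB1*, which encodes the p105 precursor of an NF-kB subunit, with 142.5 and 176.0 FPKM, followed by *TNIP1*, an inhibitor of this pathway, with 91.2 and 86.5 FPKM, and *RELA* with 58.3 and 54.9 FPKM. The difference for *NFKB1* was 0.30, the largest upward difference in this list, and *MAP3K14*, the kinase of the noncanonical pathway, had the largest downward difference at -0.45.

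Further genes of the cytokine system and targets of inflammation were split in direction. Of all kept genes, 50.2% were higher as deposited, 54.2% after scaling to a common median and 64.9% with equal sums. Of the 39 listed genes of the cytokine system, 23 were found and 14 kept, of which 7 were higher and 7 lower in pLVX-*RBP4* cells, with a median of -0.027, and 9 were higher with equal sums. The 3 most abundant were receptors of the TNF family. *TNFRSF12A*, the TWEAK receptor, had 438 FPKM in CTRL cells and 479 FPKM in pLVX-*RBP4* cells, *LTBR* had 191 and 183 FPKM, and *TNFRSF1A*, the main TNF receptor, had 117 and 109 FPKM. Of the 23 inflammatory targets listed, 14 were found and 11 kept, 5 higher and 6 lower, with a median of -0.0034, and 7 were higher after scaling to a common median and 8 with equal sums. The 3 most abundant were *PTGES*, the prostaglandin E synthase, with 299 and 296 FPKM, the adhesion molecule *VCAM1* with 120.6 and 120.3 FPKM, and *LCN2*, an iron-sequestering lipocalin. A difference of 0.5 or more was found for *LCN2*, with 69.8 and 36.2 FPKM (-0.93), and for *S100A8*, a subunit of calprotectin, with 8.63 and 12.7 FPKM (0.51). These were 2 of the 11 kept targets, beside 4.05% of all kept genes and 125 of the 8024 kept genes with a symbol. Of the inflammatory targets, *TNFAIP6* and *ZFP36* were listed at 0 in both groups, as were 897 of all 17950 genes. Whether such a 0 stands for a gene that is not expressed was not tested.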

How the data were processed

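RNA of 3 pLVX-*RBP4* and 3 CTRL libraries was sequenced by the authors. According to the methods of the study, TopHat2 aligned the filtered read pairs to the Sscrofa10.2 genome, expression was given as FPKM, and Cuffdiff of Cufflinks was used for the comparison of groups. The tool that computed the deposited FPKM, versions and the annotation release are not given in the sources used here. The deposited table holds FPKM in 2 columns, and each column combines the 3 libraries of a group. Both columns of values were used. The number of fragments behind a value is unknown, and no interval, SD or p-value was computed.

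Symbols came from a table of Ensembl gene names, and gene order from RefSeq on Sscrofa11.1. The difference of log2(FPKM + 1) was computed with a pseudocount of 1 for genes that averaged 1 FPKM or more, and a size of 0.5 was used as the limit. Named genes were *RBP4*, all kept members, weaker members with at least 0.5 FPKM in a group, and in each list the 3 most abundant genes and those past 0.5. *PTPN1*, *NFKB1* for its difference, *MAP3K14*, the cell markers, *TNFAIP6*, *ZFP36* and other weaker members were named after their values were seen. Some genes that this rule or the lists take in are not reported here by name. Members and lists were chosen with earlier results of these data known. The calculation was tested on simulated data. Python 3.11.15, numpy 2.4.6, pandas 2.3.3 and matplotlib 3.10.9 were used.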

Additional observations from a re-analysis of the deposited data

How the results depend on the processing

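No paired analysis was possible because each group has 1 deposited value per gene, and no library could be left out for the same reason. The alternatives were other pseudocounts (0.1 and 0.01), no filter or a filter at 5 FPKM, equal medians, equal upper quartiles or equal sums of the groups, leaving out members listed at 0, and other limits for expressed genes. A median was taken as moved at a change of 0.1 and a count at more than 1.5 times. No median of a role or list moved by 0.1 under these alternatives, a limit larger than most of these medians. The median of the ligands ranged from 0.027 to 0.12, and that of the receptors from -0.011 to 0.067. Of the 35 kept members, 18 higher and 17 lower, the lower count was 11 after scaling to a common median and 10 with equal sums. At the filter of 5 FPKM, 26 members remained, 15 higher and 11 lower, and without a filter 39 were higher and 32 lower. Scaling turned the sign of 7 members, none of which differed by more than 0.026 as deposited. The count of members past 0.5 was 1 as reported and 3 with a pseudocount of 0.1, 3 with 0.01, 3 without a filter and, in alternatives chosen after seeing the data, 3 without a pseudocount and 3 with a limit of 0.3, which 14.8% of all kept genes passed. With a pseudocount of 0.1 the added members were *IL7* (0.55) and *IL17RD* (-0.53), and *IL1R2* stood at 0.71. With at least 1 FPKM as the limit, 35 members were expressed in CTRL cells and 36 in pLVX-*RBP4* cells, in place of 63 and 68. The unknown number of fragments and the absent replicate values limit every difference given.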
